A study of Homo sapiens with 4 samples.

Results

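The BCL2 family of apoptosis regulators was described in 4 one-colour Agilent gene expression arrays of human prostate cancer cells. Its members were fixed by name as BCL2, BCL2L1, MCL1, BCL2A1, BAX, BAK1, BCL2L11, BBC3, PMAIP1 and BIK, and every probe of these genes was kept apart. All 10 genes had a probe, of 25122 gene symbols on the array, and together they had 15 probes. The 4 groups were PC3-shC, PC3-shESS2, DU145-shC and DU145-shESS2 cells, with 1 array each. PC3 and DU145 are established androgen-insensitive prostate cancer cell lines, shESS2 is an shRNA against ESS2, a transcriptional coregulator, and shC is the control shRNA, which the sample labels give as one against luciferase. All 4 cell populations therefore carried an shRNA, by lentiviral transduction according to the labels, whereas the methods of the study describe plasmid transfection and puromycin selection for PC3. Whether each line was a clone or a pool, and how many hairpins were used, is not given in the sources used here.

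BCL2 family proteins decide whether the outer mitochondrial membrane is opened during apoptosis. BCL2, BCL2L1 (BCL-xL), MCL1 and BCL2A1 hold the pore-forming effectors BAX and BAK1 in check, and the BH3-only proteins BCL2L11 (BIM), BBC3 (PUMA), PMAIP1 (NOXA) and BIK oppose the inhibitors or act on the effectors. Cancer cells, prostate cancer included, often depend on an inhibitor of this family for survival.

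In PC3 cells the probe of PMAIP1 had a 7.31-fold higher signal with shESS2 than with shC, whereas in DU145 cells its signals were nearly equal. Of the 2 probes of BCL2A1, 1 had a 12.5-fold lower signal with shESS2 in PC3 and a 15.5-fold lower one in DU145, and the other differed by less than 1.4-fold (1.07-fold in PC3 and 1.37-fold in DU145). No other member probe differed by more than 2-fold between shESS2 and shC in either line. Between the lines, BIK had a higher signal in PC3, and MCL1 had a higher signal in DU145. Both BCL2 probes were higher in PC3 as well, but neither was well above background in DU145, so the size of their difference depends on the background handling. Signals are given as scaled signals, which are background-subtracted intensities put on a common 75th percentile of 244, and a ratio is a difference of their log2 values. As each condition had 1 array, no difference within a line and none between the 2 control arrays has a replicate check, and none of these was tested.

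**Figure D1:**
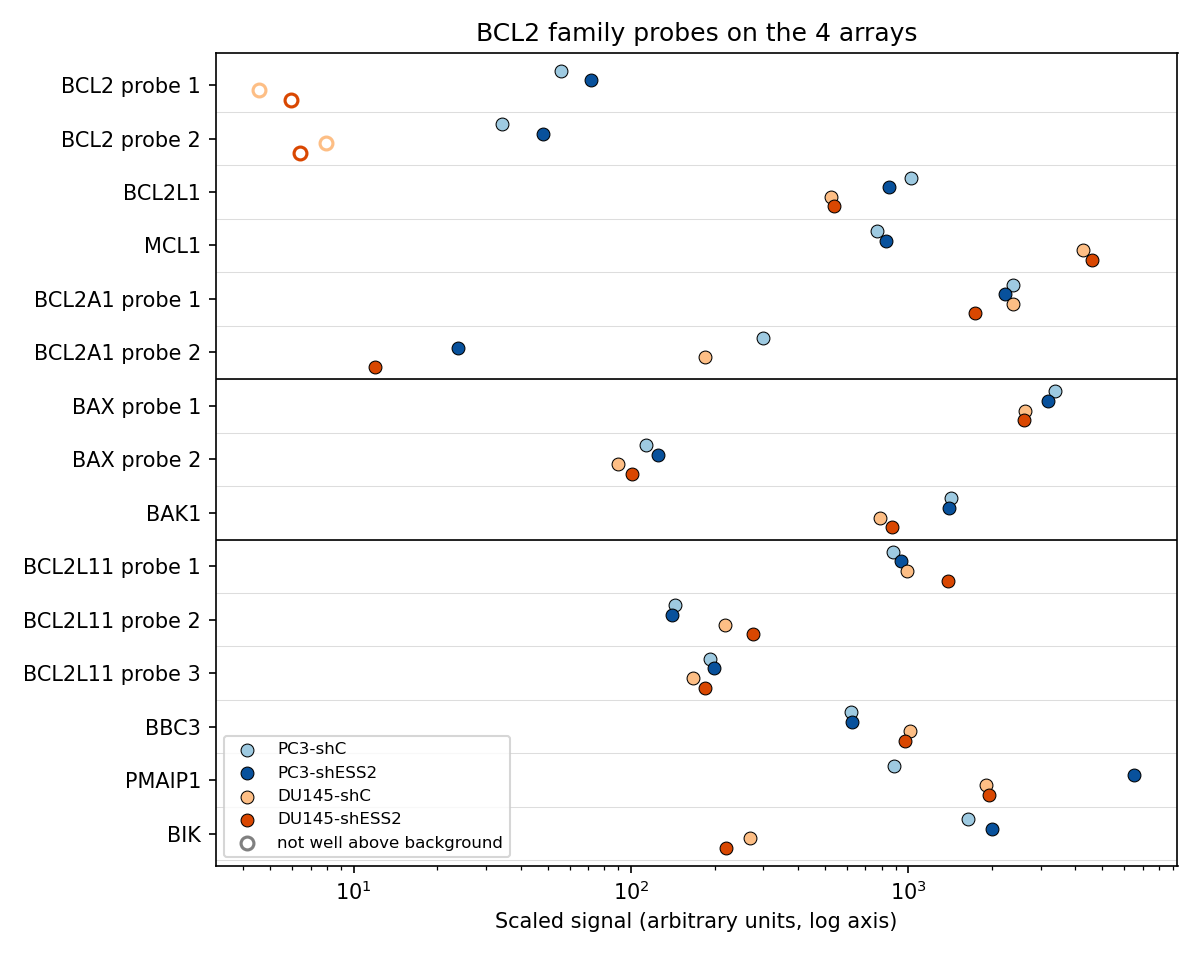
Scaled signal of each BCL2 family probe (log axis, arbitrary units) on the 4 arrays, with 1 point per array. Open circles are signals not well above background, and black lines separate anti-apoptotic members (top), effectors (middle) and BH3-only members (bottom). Signals of different probes cannot be set against each other, so each line is read across.

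The array behind each value and the cells were checked first. ESS2 itself had scaled signals of 123 in PC3-shC, 45.0 in PC3-shESS2, 98.5 in DU145-shC and 19.3 in DU145-shESS2 cells, a log2 ratio of -1.45 in PC3 and -2.35 in DU145, which normexp background correction took to -0.90 and -1.13. GAPDH and ACTB had log2 ratios between -0.04 and 0.18. The epithelial markers KRT8, KRT18 and EPCAM were well above background on all 4 arrays, although EPCAM had a log2 ratio of -2.61 in DU145, whose part in the DU145 ratios of the family was not tested. KLK3, which encodes prostate-specific antigen, was not well above background on any array. Of the leukocyte markers, PTPRC was well above background on all 4 arrays at scaled signals of 31.3 to 55.3 and CD3E on none. Well above background were 50.8 to 52.6% of the non-control spots of an array. Among 280 probes spotted 10 times, the log2 ratio of spots at the same position had a median SD of 0.0465 in PC3, 0.0527 in DU145 and 0.0563 between the control arrays, and spots not paired by position gave 0.0821 to 0.0838. These SDs cover spots only and neither the hybridization nor the cells. Both arrays of a line shared a slide and a scan, and the lines differed in both, so line and slide cannot be told apart.

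Among the anti-apoptotic members, BCL2A1 had the largest ratios. BCL2A1 probe 1 had scaled signals of 2390 in PC3-shC, 2235 in PC3-shESS2, 2379 in DU145-shC and 1732 in DU145-shESS2 cells. Its 4 arrays thus lay close together, with a log2 ratio of -0.10 in PC3 and -0.46 in DU145. BCL2A1 probe 2 had scaled signals of 299 in PC3-shC, 23.9 in PC3-shESS2, 185 in DU145-shC and 12.0 in DU145-shESS2 cells. Both shESS2 arrays were far below both shC arrays on this probe, with a log2 ratio of -3.65 in PC3 and -3.95 in DU145, and the signal was well above background on all 4 arrays. In bulk RNA, fewer cells expressing a gene and less RNA per cell cannot be told apart. Counting the probe itself, 48 of 30169 probes compared had a ratio at or below it in PC3 (0.159%) and 4 of 30580 in DU145 (0.0131%). Of 24880 probes well above background on all 4 arrays, 35 were over 2-fold lower in both lines, and BCL2A1 probe 2 was the only 1 with ratios at or below its own in both. Normexp background correction gave it smaller log2 ratios, -2.22 in PC3 and -1.70 in DU145.

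Both BCL2A1 probes carry the same RefSeq record in both annotation releases of the array, so the files do not tell which transcripts each detects. Their log2 ratios were 3.55 apart in PC3 and 3.49 apart in DU145. Over 3817 genes for which 2 or more probes passed background on every array, the median span between probes of a gene was 0.211 in PC3 and 0.177 in DU145. Counting BCL2A1 itself, 2 of these genes reached its span in PC3, 1 in DU145 and 1 in both lines. The probes of BAX were 0.229 and 0.182 apart and those of BCL2L11 0.125 and 0.338 apart, in PC3 and DU145. No direction is therefore given for BCL2A1 as a gene.

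The promoter of BCL2A1 is shown because a probe of this gene had the lowest ratios of the family in both lines, and that of PMAIP1 because it had the highest in PC3. They are RefSeq sequences of build GRCh38.p14 from 250 bases before to 50 bases after the annotated start, written 5′ to 3′ on the gene's strand, with capitals for motif matches. BCL2A1 lies on the minus strand at chr15:79971147-79971446 and PMAIP1 on the plus strand at chr18:59899746-59900045.
BCL2A1: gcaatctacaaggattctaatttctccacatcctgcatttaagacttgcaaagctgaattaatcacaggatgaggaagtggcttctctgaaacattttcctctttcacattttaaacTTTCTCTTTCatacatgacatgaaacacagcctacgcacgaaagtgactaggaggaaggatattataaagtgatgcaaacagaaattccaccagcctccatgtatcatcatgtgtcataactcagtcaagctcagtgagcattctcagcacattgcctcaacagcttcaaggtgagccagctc
PMAIP1: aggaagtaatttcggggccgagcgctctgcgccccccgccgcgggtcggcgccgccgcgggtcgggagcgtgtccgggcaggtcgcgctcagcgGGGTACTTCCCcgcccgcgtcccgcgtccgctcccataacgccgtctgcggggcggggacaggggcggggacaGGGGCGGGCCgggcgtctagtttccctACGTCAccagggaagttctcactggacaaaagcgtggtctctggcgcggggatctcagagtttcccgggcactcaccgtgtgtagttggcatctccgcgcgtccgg
The motifs searched, on both strands, were NF-kB (GGG, any 5 bases, CC), interferon response or IRF (GAAA, any 2 bases, GAAA), AP-1 (TGANTCA), ATF/CREB (ACGTCA) and E-box (CACGTG). The capitals in BCL2A1 are 1 IRF match on the opposite strand, beginning at position -133 from the start. Those in PMAIP1 are 3 NF-kB matches, of which the first 2 overlap each other, followed by 1 ATF/CREB match. Of 35116 promoters of the same length, 58.7% hold the NF-kB letters, 3.57% the IRF letters, 7.71% the AP-1 letters, 7.98% the ATF/CREB letters and 7.26% the E-box letters. Of the 8 members with a promoter in the table, 5 hold NF-kB letters (BAK1, BBC3, BCL2, BCL2L11 and PMAIP1), 2 IRF letters (BBC3 and BCL2A1), 2 the E-box (BAX and BBC3), 1 AP-1 letters (BBC3) and 1 ATF/CREB letters (PMAIP1). A match is a description of letters and not a bound site, and no binding was measured on these arrays.

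The other anti-apoptotic members differed little between shESS2 and shC. MCL1 had scaled signals of 773 in PC3-shC, 832 in PC3-shESS2, 4264 in DU145-shC and 4594 in DU145-shESS2 cells. Its log2 ratio was 0.11 in both lines. BCL2L1 had scaled signals of 1019 in PC3-shC, 849 in PC3-shESS2, 526 in DU145-shC and 539 in DU145-shESS2 cells. Its log2 ratio was -0.26 in PC3 and 0.03 in DU145. BCL2 probe 1 had scaled signals of 55.7 and 71.4 in PC3-shC and PC3-shESS2 cells, and BCL2 probe 2 had 34.2 and 48.3. Both BCL2 probes were thus somewhat higher with shESS2 in PC3, with log2 ratios of 0.36 and 0.50, and neither was well above background in DU145, where they were not compared.

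The effectors stayed close to their control levels. BAX probe 1, which was spotted 10 times, had scaled signals of 3368 ± 75.3 in PC3-shC, 3183 ± 139 in PC3-shESS2, 2643 ± 43.3 in DU145-shC and 2614 ± 73.3 in DU145-shESS2 cells (mean ± SD over 10 spots of 1 array). BAX probe 2 had scaled signals of 113, 125, 89.8 and 101 on the same arrays in that order. The log2 ratios of BAX were -0.08 and 0.15 in PC3 and -0.02 and 0.17 in DU145. BAK1 had scaled signals of 1427 in PC3-shC, 1403 in PC3-shESS2, 793 in DU145-shC and 873 in DU145-shESS2 cells, with log2 ratios of -0.02 and 0.14. The signs of ratios this small turned with the scaling for BAX probe 1 in both lines and for BAK1 in PC3.

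Among the BH3-only members, PMAIP1 stood apart in PC3. PMAIP1 had scaled signals of 889 in PC3-shC, 6495 in PC3-shESS2, 1908 in DU145-shC and 1956 in DU145-shESS2 cells. Only the PC3-shESS2 array was high, at 3.32-fold the level of the DU145-shESS2 array, and the PC3-shC array was the lowest of the 4. Its log2 ratio was 2.87 in PC3 and 0.04 in DU145. In PC3, 59 of 30169 probes were at or above this ratio, itself included (0.196%), and over all alternative processing it lay between 2.77 and 2.96. The PC3 ratio minus the DU145 ratio was 2.83, and 23 of 24880 probes were at or above that difference, which cannot be tested with 1 array per condition.

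The remaining BH3-only members differed by less than 1.4-fold. BCL2L11 probe 1 had scaled signals of 883, 941, 992 and 1386 in PC3-shC, PC3-shESS2, DU145-shC and DU145-shESS2 cells. BCL2L11 probe 2 had 144, 140, 218 and 275 in the same order, and BCL2L11 probe 3 had 192, 198, 168 and 186. All 3 BCL2L11 probes were higher with shESS2 in DU145, with log2 ratios of 0.48, 0.33 and 0.15, whereas in PC3 they lay between -0.03 and 0.09. BBC3 had scaled signals of 619 in PC3-shC, 625 in PC3-shESS2, 1016 in DU145-shC and 969 in DU145-shESS2 cells. BIK had scaled signals of 1640 in PC3-shC, 2000 in PC3-shESS2, 269 in DU145-shC and 220 in DU145-shESS2 cells. The log2 ratio of BBC3 was 0.01 in PC3 and -0.07 in DU145, and that of BIK was 0.29 in PC3 and -0.29 in DU145. The signs of the PC3 ratios of BCL2L11 and BBC3 turned with the scaling, whereas those of BIK in both lines and of BCL2L11 in DU145 did not under any alternative run.

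Of the 15 member probes compared in PC3, 1 was over 2-fold higher and 1 over 2-fold lower with shESS2, and of all probes compared 4.13% were higher and 3.53% lower by that much. In DU145, 13 member probes were compared, of which 0 were over 2-fold higher and 1 was lower, where 2.4% and 2.65% of all probes were. The median log2 ratio of the members was 0.0482 in PC3 and 0.0359 in DU145, beside -0.0326 and -0.0271 over all probes. Counts of 0 and 1 among so few probes are near these shares, and nothing about the family as a whole is read from them. Regardless of sign, the median log2 ratio was 0.106 in PC3 and 0.145 in DU145 over the members, beside 0.281 and 0.242 over all probes.

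The knockdown was tested across the lines with limma on the 4 arrays together, blocked by cell line. This leaves 1 residual degree of freedom per probe, which reflects how far the PC3 and DU145 ratios of that probe differ. No condition was repeated, and nothing says whether the arrays stand for separate cultures. The p-values therefore rest on that difference, moderated over all probes, and measure no spread between repeated arrays or cultures. BCL2A1 probe 2 had a mean log2 difference of -3.80 (SE 0.198) with an unadjusted p of 4.91e-05 and an adjusted p of 0.774 by limma with Benjamini-Hochberg adjustment over 30830 probes. PMAIP1, high in PC3 only, had 1.45 (SE 0.737) and an adjusted p of 0.774 in the same limma fit. By limma, 0 of the 15 member probes and 0.0% of all probes passed in either direction, and at an unadjusted p under 0.05 there were 1 member probe and 1742 of all probes.

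PMAIP1 and BCL2A1 probe 2 were set against all other probes with a symbol and a signal well above background on the 4 arrays (19504 probes), by the Euclidean distance of their 4 centred log2 values. Nearest to PMAIP1 were ISG20, an interferon-stimulated exonuclease (distance 0.247), ATF3, a stress-induced transcription factor (0.346), and ITGA5, an integrin subunit (0.436). Their log2 ratios were 2.80, 2.58 and 2.32 in PC3 and 0.32, 0.28 and -0.04 in DU145. Of the further ATF3 probes, 2 had PC3 ratios of 2.65 and 2.19, and 1 had 0.30. Nearest to BCL2A1 probe 2 was LTB, which encodes lymphotoxin beta (distance 1.02), with log2 ratios of -3.32 in PC3 and -5.27 in DU145. ESS2 itself (1.92) and PLS3, an actin-bundling protein gene (2.08), followed at larger distances. With 4 arrays such likeness describes these arrays only.

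The levels of the family were next compared between the control cells of the lines. BIK had a 6.10-fold higher signal in PC3-shC than in DU145-shC cells, and MCL1 had a 5.52-fold lower one. BCL2 was at least 5.60-fold higher in PC3-shC cells by probe 1 and at least 3.44-fold higher by probe 2, since DU145-shC was raised to the lowest signal well above background. PMAIP1 was 2.15-fold lower in PC3-shC cells. Just inside 2-fold, BCL2L1 was 1.94-fold and BAK1 1.80-fold higher in PC3-shC cells. Of the 15 member probes, 3 were over 2-fold higher and 2 over 2-fold lower in PC3-shC cells, where 18.6% and 22.2% of all probes were. The division moved with the scaling, to 6 higher and 1 lower under median scaling and to 3 higher and 4 lower with the authors' scaled values. In the first count the higher probes include both BCL2 probes, which were compared only through the PC3-shC array, so nothing is read from it. With a filter on every array, 1 of 13 member probes was over 2-fold higher in PC3-shC cells and 2 were over 2-fold lower. MCL1 and BIK kept their direction past 2-fold under every alternative, whereas normexp correction took the log2 ratios of the BCL2 probes to 0.71 and 0.31 and that of PMAIP1 to -0.83, and median scaling took PMAIP1 to -0.65.

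Over both conditions, limma gave 9 of the 15 member probes an adjusted p under 0.05 between the lines, 6 higher and 3 lower in PC3, where 24.0% of all probes tested were higher and 25.9% lower. The count includes both BCL2 probes, which entered the fit only through the PC3 arrays where they were high and had their values raised to the floor on both DU145 arrays, so nothing is read from their tests. Among the probes well above background on all 4 arrays, 7 of 13 member probes and 49.6% of 24880 probes passed. Higher in PC3 were BIK (log2 difference 2.90, SE 0.233, adjusted p = 0.00394), BCL2A1 probe 2 (0.84), BCL2L1 (0.80) and BAK1 (0.77), by limma. Lower in PC3 were MCL1 (log2 difference -2.46, SE 0.183, limma adjusted p = 0.00344), BCL2L11 probe 2 (-0.79) and BBC3 (-0.67). BCL2A1 probe 2, BAK1 and BCL2L1 had limma adjusted p-values from 0.0318 to 0.0354, and BCL2L11 probe 2 and BBC3 had 0.0405 and 0.0455. BCL2A1 probe 1, both BAX probes, BCL2L11 probes 1 and 3 and PMAIP1 did not pass, with limma adjusted p-values from 0.209 to 0.744. Only BCL2L11 probe 2 of its gene's 3 probes passed, and BCL2L11 probe 3 had an estimate of the opposite sign (0.14). Without a filter on dim probes 0 of 58196 probes passed, members included, and 9 member probes had an unadjusted p under 0.05 by limma. With the filter kept, BIK and MCL1 passed under every alternative, and each of the other called probes apart from BCL2 lost the call under at least 1 (BCL2L1 and BAK1 with quantile normalization or the authors' values, BCL2A1 probe 2 with normexp correction or the authors' values, and BCL2L11 probe 2 and BBC3 with median scaling, among others). The SEs and p-values between the lines rest on the same residual as the knockdown test, with no repeated array. As each line had its own slide, scan and software version, a difference between lines and between slides cannot be told apart.

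The genes around the family were followed in 6 lists of 54 genes, all with a probe, each represented by its brightest probe. In PC3, 3 of 50 genes compared were over 2-fold higher with shESS2 and 1 was lower, which is 8.0% beside 7.75% of all genes. In DU145, 1 of 52 was higher and 2 were lower, which is 5.77% beside 4.83% of all genes. These shares are close to the background, and the median log2 ratio was -0.0191 in PC3 and -0.0605 in DU145 over the lists, beside -0.0551 and -0.0216 over all genes.

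Among 15 other BCL2 family genes, BNIP3, a mitophagy receptor, had scaled signals of 13340 in PC3-shC and 32940 in PC3-shESS2 cells (log2 ratio 1.30), and of 6344 and 9512 in DU145 (0.58). The BH3-only gene BMF had a log2 ratio of -1.02 in PC3 (second probe -0.65) and 0.59 in DU145. The BH3-only gene HRK had a log2 ratio of -1.38 in DU145 (second probe -1.81), whereas its probes lay in opposite directions in PC3, at 0.35 and -0.75. Among 9 apoptosome and caspase genes, CASP10, an initiator caspase, had a log2 ratio of 1.62 in PC3 by its brightest probe, but other probes had -1.48 and, as a bound, -1.98, so its direction differs between probes. The largest ratio of this list in DU145 was 0.43 for APAF1, the scaffold of the apoptosome.

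Among 7 caspase inhibitors and their antagonists, BIRC3 (cIAP2) had scaled signals of 1510 in PC3-shC and 2437 in PC3-shESS2 cells, and of 833 and 386 in DU145. Its log2 ratios thus lay in opposite directions, 0.69 in PC3 and -1.11 in DU145. Among 7 death receptors and adaptors none was past 2-fold by its brightest probe, and the largest such ratios were -0.70 for TNFRSF10B in PC3 and -0.76 for FAS in DU145. A dimmer FAS probe had a PC3 ratio of -1.36 as a bound, where the brightest had -0.47. Among 12 upstream regulators, CDKN1A, which encodes the cell cycle inhibitor p21, had scaled signals of 67.8 and 166 in PC3 (log2 ratio 1.29) and of 34.6 and 53.1 in DU145 (0.62). TP73, which encodes a transcription factor, had a log2 ratio of 1.10 in DU145. Among 4 genes of MCL1 turnover the largest were -0.87 for the deubiquitinase gene USP9X in PC3 and 0.66 for the ubiquitin ligase gene FBXW7 in DU145. Normexp correction took BMF, CDKN1A, HRK, BIRC3 and TP73 inside 2-fold, which left 2 of 50 genes past it in PC3 (BNIP3 and CASP10) and 0 of 52 in DU145.

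Between the control arrays, 15 of 52 listed genes were over 2-fold higher and 5 over 2-fold lower in PC3, which is 38.5% beside 42.0% of all genes. This division too moved with the scaling, to 26 and 3 under median scaling and to 4 and 11 with the authors' scaled values. BCL2L10, an anti-apoptotic relative, was at least 11.1-fold lower in PC3-shC cells, a log2 ratio of -3.48 that normexp correction took to -1.27. BCL2L13, TNFRSF1A and USP9X were among the lower genes, with log2 ratios of -1.37, -1.05 and -1.63. The higher genes included the executioner caspase gene CASP6 (1.37), FBXW7 (1.85), E2F1 (1.80), BOK (1.55), a BAX relative, and CYCS (1.44), which encodes cytochrome c. A further CYCS probe had 1.46 but another had -0.74, so the direction of CYCS differs between probes. BCL2L2, BCL2L12, BNIP1, BNIP3, CASP2, BIRC5, FAS, RIPK1 and MYC were higher as well, with log2 ratios of 1.01 to 1.31.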

How the data were processed

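RNA from PC3-shC, PC3-shESS2, DU145-shC and DU145-shESS2 cells was measured on 1 one-colour (Cy3) Agilent array each, from 0.1 µg of total RNA. The authors deposited the scanner output of Agilent Feature Extraction (12.1.0.3 for PC3 and 12.0.3.1 for DU145), with background-subtracted intensity per spot and no scaling between arrays. The deposited intensity table of the authors' scaled values equals the processed signal times 1 constant per array, within 1% for 100% of the spots. The methods name GeneSpring without settings.

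The processed signal was scaled by each array's 75th percentile over non-control spots and put on the log2 scale. Control spots and outlier spots were left out, which removed 5 probes and no member spot, and spots of a probe were averaged. A comparison of 2 arrays used the probes that passed the scanner's background flag on either of them. A value that failed the flag was set no lower than the dimmest signal that passed on its array, and such a fold is written as "at least". No non-control spot was saturated. Of 58201 probes, 35080 were matched by accession to a RefSeq table of GRCh38.p14, and all 15 member probes have the same accession in both annotation releases. For listed genes the brightest probe was used. No test was made within a line. Across lines, limma was fitted to probes that passed the flag on 2 or more arrays, with line and knockdown as terms, Benjamini-Hochberg adjustment at 0.05 and 2.93 prior degrees of freedom. The number of arrays limits the precision.

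The members and lists were chosen with earlier results of these data known. Listed genes were named where past 2-fold in a ratio or largest in their list, and for each member probe past 2-fold between shESS2 and shC the 3 nearest genes were named. The values of some listed genes and markers are not reported here. The motifs were chosen after the promoters and ratios had been seen. MCL1 and BIK had no promoter in the table. The alternatives were median scaling, quantile normalization, normexp correction (offset 50, on the median spot signal), no filter, a filter on every array, the plain signal of dim spots, outlier spots kept, the authors' scaled values, no block, and leaving out arrays. The calculations were tested on simulated data. The simulated knockdown shift for limma was equal in both lines, so this does not show how limma performs where the lines differ. The software was limma 3.58.1 in R 4.3.3, and pandas 2.3.3, numpy 2.4.6 and matplotlib 3.10.9 in Python 3.11.15.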

Additional observations from a re-analysis of the deposited data

Results flagged for a closer look

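BIK lay in opposite directions in the 2 lines, with a log2 ratio (shESS2 over shC) of 0.29 in PC3 and -0.29 in DU145. The PC3 ratio minus the DU145 ratio was 0.57, and 24.4% of 24880 probes well above background on all 4 arrays had a difference as far from 0. Each ratio was over 3 times the median SD between spots, a minimum chosen after these values had been seen. Each condition had 1 array, so the difference was not tested.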

How the results depend on the processing

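The counts of member probes past 2-fold between shESS2 and shC, 2 in PC3 and 1 in DU145, were equal under all 8 alternatives of scaling, background, filter and spots, and limma called 0 member probes for the knockdown under each of them and with no block. Between the control arrays the count of 5 became 2 with normexp correction and 3 with a filter on every array, which leaves out the BCL2 probes, and it became 7 with median scaling and 7 with the authors' values. The count of 9 member probes different between the lines became 0 with no filter on dim probes, where 58196 probes were tested, and lay between 6 and 9 otherwise. No member ratio past 2-fold, and no line difference that limma called, changed sign. Median scaling moved the median ratio of all probes by -0.103 in PC3 and 0.455 between the control arrays, and the authors' values moved the latter by -0.449. Between the lines, the signs for BCL2A1 probe 1, both BAX probes and BCL2L11 probes 1 and 3 on the control arrays turned with such shifts. Leaving out the shESS2 or the shC arrays gave line differences for BIK of 2.61 to 3.18 and for MCL1 of -2.46 in both cases, with no test. The labels give no replicate numbers, and the block by cell line is what pairs shESS2 with shC in the limma fit. Dim probes such as BCL2 in DU145 and BCL2A1 probe 2 with shESS2 limit the size of their ratios.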
